A study of Mus musculus with 18 samples.

Results

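The 8 genes described here encode the enzymes and carriers that take long-chain and medium-chain fatty acids into mitochondria and break them down. They are Cpt1a, Slc25a20 and Cpt2 of the carnitine shuttle, the acyl-CoA dehydrogenases Acadvl, Acadl and Acadm, and Hadha and Hadhb, the 2 subunits of the mitochondrial trifunctional protein. They were chosen by name, as the genes with these symbols on the array, and all 8 were among the 26073 genes tested. None of the 8 makes ketone bodies. The genes of ketone body synthesis and use were therefore counted as a list of their own.

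The study measured RNA of male C57BL/6 mouse intestine on 18 two-colour arrays, in 6 groups of 3 that its design text calls biological replicates. Control tumour and SJW tumour were tumours of mice given azoxymethane (AOM), a carcinogen used to raise intestinal tumours in rodents, fed either the control diet or St. John's wort (SJW), a herbal remedy. Control AOM and SJW AOM were non-tumour areas after AOM on the same diets, and SJW saline and control saline were non-tumour intestine after saline injection. Doses, times, ages and the number of mice behind a sample are not given in the labels, so p-values measure the spread between these samples. Each array set sample RNA, labelled with Cy5, against 1 commercial pool of Swiss Webster mouse RNA, labelled with Cy3. The pool was made of embryos and 9 organs (thymus, testicle, spleen, ovary, lung, liver, kidney, heart and brain), with no intestine among the organs named. A level is the log2 ratio of sample to pool, so 0 means equal to the pool and levels of different genes are not on a common scale.

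In mitochondrial fatty acid oxidation, an activated fatty acid is first coupled to carnitine at the outer membrane by CPT1, carried across the inner membrane in exchange for free carnitine, and turned back into an acyl-CoA by CPT2. Acyl-CoA dehydrogenases of different chain length preference then take the first step of each oxidation round, and the trifunctional protein carries out the remaining 3 steps for long chains. Malonyl-CoA, the first product of fatty acid synthesis, inhibits CPT1. The colon epithelium is known for burning butyrate from bacterial fermentation, a short-chain acid that largely bypasses the carnitine shuttle and is broken down by short-chain enzymes, and for making ketone bodies from it.

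By its label the tissue is small intestine, but liver is named in the protocol of extraction. In control saline, each set against its own level in the pool on the log2 scale, the colon gene Car1 stood at 7.76. Of the small intestine genes, Fabp2 stood at 4.45 and Rbp2 at 3.59, while Lct at 0.11 and Alpi at 0.09 were near the pool. The liver gene Alb stood at -2.77. As means of whole lists in control saline, 8 measured colonocyte genes stood at 4.80 and 8 of small intestine enterocytes at 1.64. In the same group 5 measured ileum genes stood at 0.98 and 6 hepatocyte genes at -0.94. The tissue is called intestine here. Within groups, arrays correlated at 0.903 to 0.958 over all genes. Each of 3 slides held 1 array of every non-tumour group, and all 3 were scanned on 1 day, while the 6 tumour arrays shared 2 other slides and a later scan day. Tumour and scan day therefore cannot be told apart. On 6 arrays, of which 5 were non-tumour, the pool's own signal was over 1.5 times the median over arrays. They were replicates 2 and 3 of control saline, 1 and 3 of SJW saline, 2 of control AOM and 3 of the control tumours. Every member's probe was well above background in both channels on all 18 arrays and saturated on none.

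Averaged over the 8 genes, the level was -0.41 ± 0.08 in SJW tumours and -0.41 ± 0.15 in control tumours, 0.32 ± 0.07 in SJW AOM, 0.54 ± 0.15 in control AOM, 0.86 ± 0.25 in SJW saline and 0.57 ± 0.03 in control saline (SD, n = 3 each). From high to low the order was SJW saline, control saline, control AOM, SJW AOM and the tumours of both diets, which stood level. The only neighbours in this order between which the change of any member passed the test were SJW AOM and the tumours. The 3 SJW saline arrays ranged from 0.58 to 1.03, and replicate 2 was the lowest of them and within the range of control saline. SJW AOM ranged from 0.25 to 0.38, below every array of both saline groups, and control AOM ranged from 0.38 to 0.68. Every tumour array lay below every non-tumour array for this average.

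**Figure D1:**
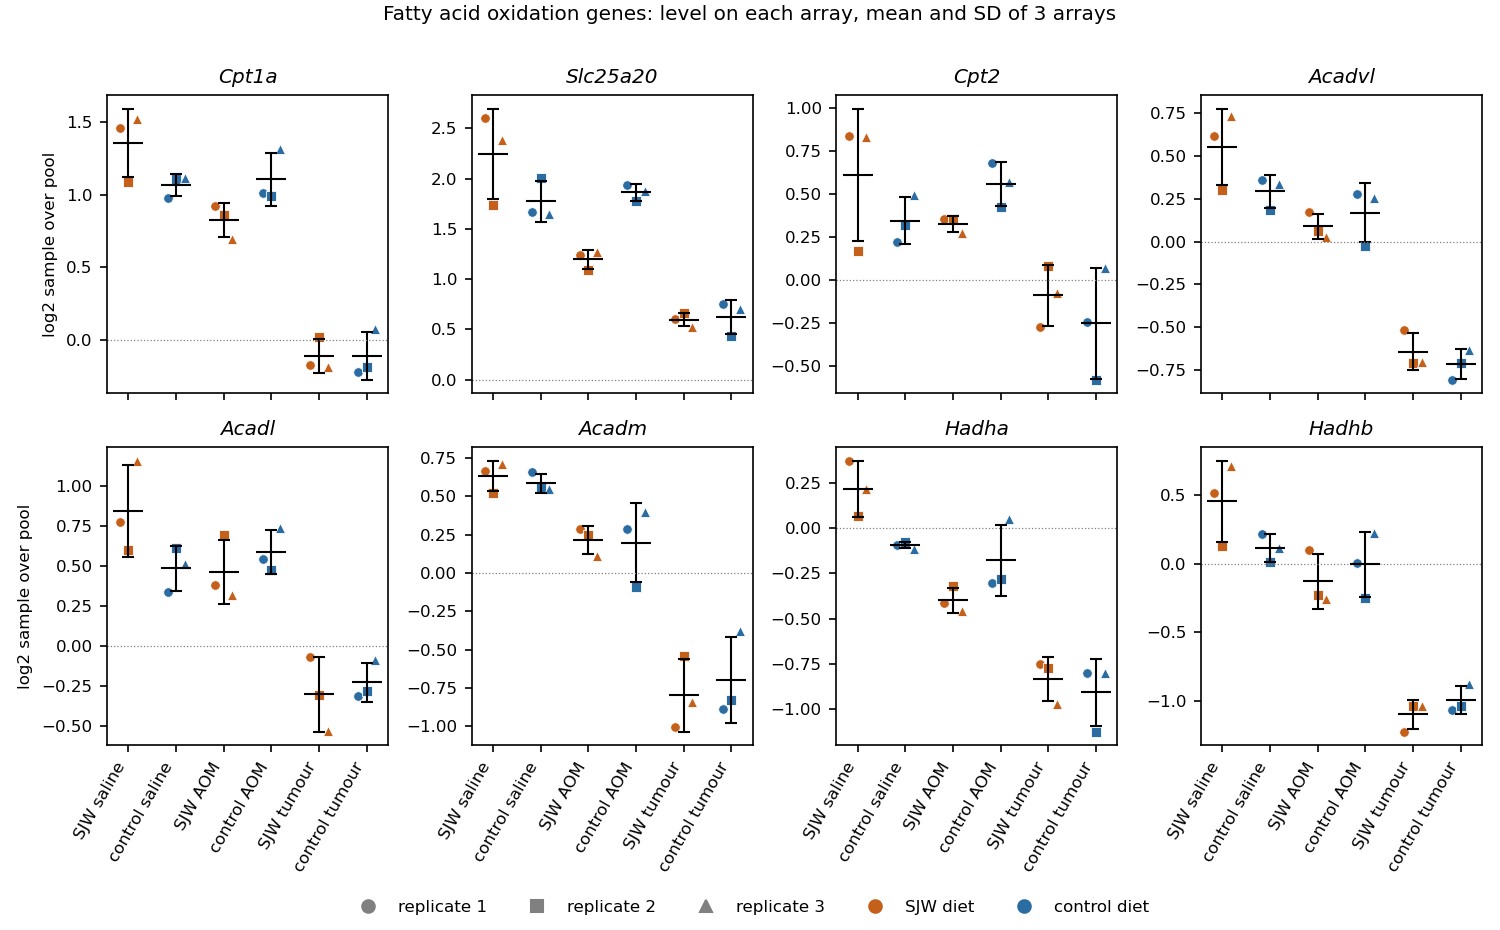
Log2 ratio of sample to pool for each of the 8 fatty acid oxidation genes, with 1 point per array and the mean and SD of each group of 3 in black. For Cpt1a, the 6 tumour arrays lie between -0.22 and 0.08, and the 12 non-tumour arrays all lie at 0.70 or above.

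Tumours held less RNA of these genes than AOM tissue of mice fed alike. On the control diet all 8 members fell, by a median of -0.89 on the log2 scale, against a median of -0.05 over all genes, and 19.3% of all genes fell past the same threshold (adjusted p under 0.05). On the SJW diet 7 of 8 fell, with a median of -0.75 against -0.06 over all genes, and 15.4% of all genes fell. In tissue samples, fewer cells of a type and less RNA per cell cannot be told apart. Groups did not overlap for any of the 8 genes on either diet, which held in the lower direction for 28.5% of all genes on the SJW diet and 24.6% on the control diet.

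Of the carnitine shuttle, Cpt1a encodes the outer-membrane carnitine palmitoyltransferase that is taken to set the pace of long-chain oxidation. It stood at -0.17, 0.02 and -0.19 in SJW tumours, against 0.92, 0.86 and 0.70 in SJW AOM. In the control groups it stood at -0.22, -0.18 and 0.08 in tumours, against 1.01, 0.99 and 1.32 in AOM tissue. All tumour arrays were thus close to the pool and all non-tumour arrays clearly above it. Cpt1a fell by 0.94 ± 0.14 (SE, adjusted p = 0.00022) on the SJW diet and by 1.22 ± 0.14 (adjusted p = 1.77e-05) on the control diet, or 1.92-fold and 2.32-fold. This probe was printed in 10 spots, of which 6 to 10 entered on an array, with an SD over spots of 0.038 to 0.112. A second, dimmer Cpt1a probe changed by -0.26 ± 0.19 (adjusted p = 0.337) on the SJW diet and by -0.37 ± 0.19 (adjusted p = 0.155) on the control diet, so the probes shared a direction but not the call.

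Slc25a20, the inner-membrane carrier that swaps acylcarnitine for carnitine, stood at 0.60, 0.66 and 0.53 in SJW tumours, against 1.24, 1.09 and 1.26 in SJW AOM. In mice of the control diet it stood at 0.75, 0.43 and 0.70 in tumours, against 1.94, 1.77 and 1.88 in AOM tissue. The tumours of both diets lay in 1 range, 0.43 to 0.75, still above the pool, while the AOM tissue of the SJW diet lay below that of the control diet. Slc25a20 fell by 0.60 ± 0.18 (adjusted p = 0.0236) on the SJW diet and by 1.24 ± 0.18 (adjusted p = 0.000121) on the control diet. The difference between these falls, 0.64 ± 0.25, did not pass the test (adjusted p = 0.9998).

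Cpt2, the inner-membrane partner of CPT1, had the highest adjusted p of the 8 members on both diets. It stood at -0.28, 0.08 and -0.08 in SJW tumours, against 0.35, 0.35 and 0.27 in SJW AOM, a difference of -0.42 ± 0.19 (adjusted p = 0.112). Control tumours stood at -0.25, -0.58 and 0.07, against 0.68, 0.42 and 0.57 in control AOM, and Cpt2 fell by 0.81 ± 0.19 (adjusted p = 0.0039). Groups did not overlap on either diet, but the tumour arrays spread more than the AOM arrays did.

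The 3 acyl-CoA dehydrogenases fell on both diets. Acadvl, which starts the oxidation of very long and long chains, averaged -0.64 ± 0.11 in SJW tumours and 0.09 ± 0.07 in SJW AOM (SD, n = 3 each), and fell by 0.73 ± 0.13 on the log2 scale (adjusted p = 0.000839). It averaged -0.72 ± 0.09 in control tumours and 0.17 ± 0.17 in control AOM, and fell by 0.88 ± 0.13 (adjusted p = 0.000134). Acadl, the long-chain enzyme, averaged -0.30 ± 0.23 in SJW tumours and 0.47 ± 0.20 in SJW AOM, and fell by 0.76 ± 0.16 (adjusted p = 0.00314). In control tumours Acadl averaged -0.22 ± 0.12 and in control AOM 0.59 ± 0.14, and fell by 0.81 ± 0.16 (adjusted p = 0.00153). Both enzymes thus crossed from above the pool in AOM tissue to below it in tumours. With only the sample channel (Cy5) used, Acadl differed by -0.17 (adjusted p = 0.636) on the SJW diet. On the control diet it then differed by -0.66 (adjusted p = 0.0584). The mean log2 pool signal of Acadl was 10.05 in SJW AOM and 10.53 in SJW tumours. In control AOM and control tumours it was 10.27 and 10.34. The fall of the Acadl ratio on the SJW diet thus came with a higher pool signal in tumours.

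Acadm, the medium-chain enzyme, stood at -1.01, -0.54 and -0.84 in SJW tumours, against 0.28, 0.25 and 0.11 in SJW AOM. In control mice it stood at -0.89, -0.83 and -0.38 in tumours, against 0.29, -0.09 and 0.40 in AOM tissue. Replicate 3 of the control tumours and replicate 2 of the control AOM tissue came closest to each other, and all tumour arrays stayed below all AOM arrays. Acadm fell by 1.01 ± 0.16 (adjusted p = 0.000367) on the SJW diet and by 0.90 ± 0.16 (adjusted p = 0.000695) on the control diet, or 2.02-fold and 1.86-fold.

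Hadha and Hadhb encode the alpha and beta subunits of the trifunctional protein, which work only as an assembled complex. Hadhb stood at -1.22, -1.04 and -1.03 in SJW tumours, against 0.10, -0.23 and -0.26 in SJW AOM. Hadhb was at -1.07, -1.04 and -0.87 in control tumours, against 0.01, -0.25 and 0.23 in control AOM. Tumour arrays of Hadhb lay in a narrow band below the pool, and AOM arrays lay around it. Hadhb fell by 0.97 ± 0.16 (adjusted p = 0.000478) on the SJW diet and by 0.99 ± 0.16 (adjusted p = 0.000305) on the control diet.

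Hadha stood at -0.75, -0.77 and -0.97 in SJW tumours, against -0.41, -0.32 and -0.46 in SJW AOM. Hadha was at -0.80, -1.12 and -0.80 in control tumours, against -0.30, -0.28 and 0.05 in control AOM. The tumours of both diets were alike in range, and SJW AOM lay below control AOM on every array. The mean log2 pool signal of Hadha was 12.33 in SJW AOM and 12.01 in control AOM. Hadha fell by 0.43 ± 0.13 (adjusted p = 0.025) on the SJW diet and by 0.73 ± 0.13 (adjusted p = 0.000708) on the control diet.

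Hadha and Hadhb lie head to head on chromosome 5, with their RefSeq starts 273 bases apart. Of the promoter windows of RefSeq on mouse build GRCm38.p6, which run from 250 bases before to 50 after each gene's start, all 8 members had 1, and those of Hadha and Hadhb shared 228 bases. On either strand, the GC box letters GGGCGG were in 6 of 8 windows and in 35.7% of all 32851 windows. The nuclear receptor letters AGGTCA were in 3 of 8, those of Cpt1a, Acadm and Acadvl, and in 16.3% of all. CCAAT was in 1 of 8, that of Cpt1a, and in 37.4% of all. The paired element AGGTCANAGGTCA was in 0 of 8 and in 0.0396% of all, TCAAGGTCA was in 0 of 8 and in 0.423%, and the E-box CACGTG was in 0 of 8 and in 7.15%. The longer elements with AGGTCA in them overlap the shorter one. The 250 bases before the start follow for the shared Hadha and Hadhb promoter and for both shuttle genes that fell in tumours of each diet, 5′ to 3′ on the gene's strand, with GC boxes, CCAAT and AGGTCA matches on either strand in capitals. Hadhb lies at chr5:30155003-30155252 on the plus strand, Slc25a20 at chr9:108661886-108662135 on the plus strand, and Cpt1a at chr19:3323051-3323300 on the plus strand.
Hadhb: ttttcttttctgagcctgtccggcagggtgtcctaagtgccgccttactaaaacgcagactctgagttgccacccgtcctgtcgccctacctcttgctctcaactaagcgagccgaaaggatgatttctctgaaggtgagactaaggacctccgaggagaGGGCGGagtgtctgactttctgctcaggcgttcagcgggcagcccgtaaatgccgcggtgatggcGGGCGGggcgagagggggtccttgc
Slc25a20: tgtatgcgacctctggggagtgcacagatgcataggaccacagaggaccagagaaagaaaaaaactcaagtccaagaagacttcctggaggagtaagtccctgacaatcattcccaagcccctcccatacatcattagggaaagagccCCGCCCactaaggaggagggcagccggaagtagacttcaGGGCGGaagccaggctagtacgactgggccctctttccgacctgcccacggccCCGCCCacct
Cpt1a: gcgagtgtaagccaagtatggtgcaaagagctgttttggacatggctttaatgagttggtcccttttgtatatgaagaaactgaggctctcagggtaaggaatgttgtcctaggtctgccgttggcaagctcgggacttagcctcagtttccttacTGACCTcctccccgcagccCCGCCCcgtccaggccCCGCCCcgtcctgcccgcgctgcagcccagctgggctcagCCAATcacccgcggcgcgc
The capitals mark matches to letters only. The stretch of Slc25a20 holds 3 GC boxes, and that of Cpt1a holds 2 GC boxes, 1 CCAAT and 1 AGGTCA.

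**Figure D2:**
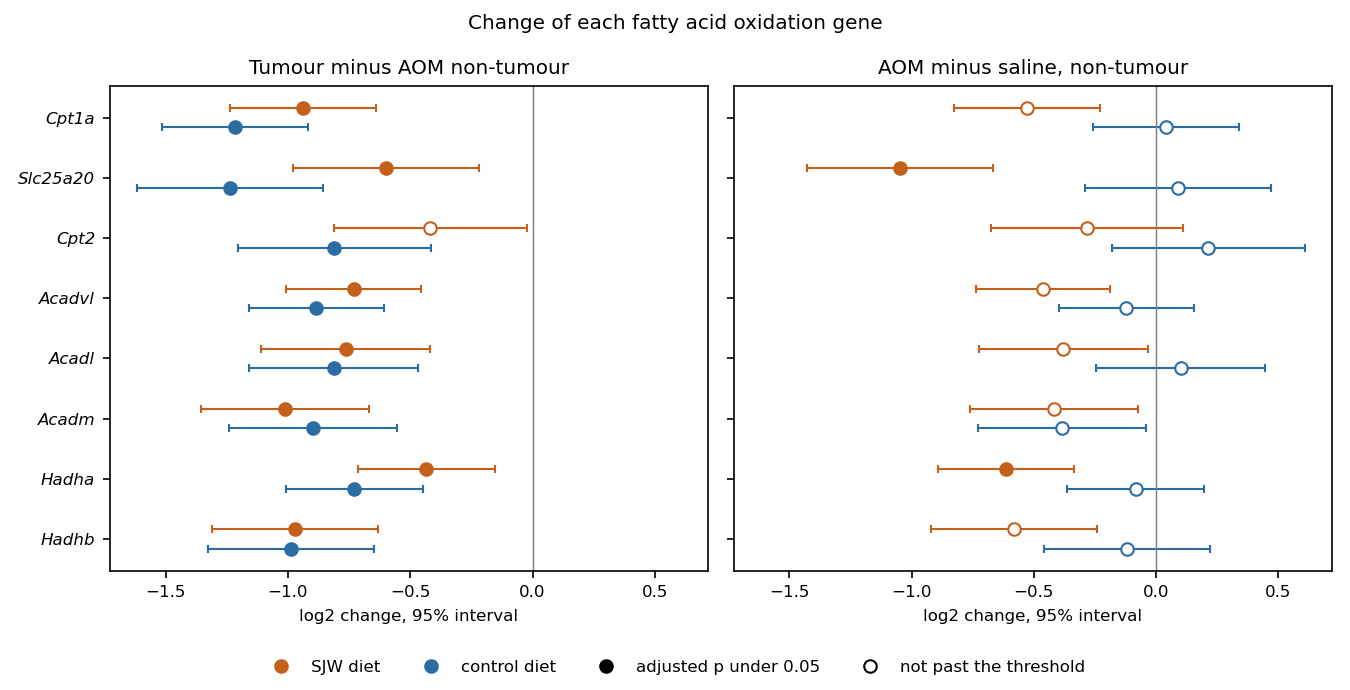
Log2 change of each member with its 95% interval, for tumour minus AOM tissue in 1 panel and AOM minus saline tissue in the other, on the SJW diet and on the control diet, with filled points for changes past the adjusted p threshold of 0.05. In tumours against AOM tissue the points lie between -1.24 and -0.42, and only Cpt2 on the SJW diet is unfilled.

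The size of these falls depended on how the arrays were scaled. All 8 members stayed below 0 against AOM tissue on both diets under each scaling tried, with 3 of them held by the deposited table. Centring arrays on their median in place of loess moved the median of all genes by 0.17 on the control diet and by 0.16 on the SJW diet, and then 2 members, Slc25a20 and Cpt1a, passed on the control diet and 0 on the SJW diet. Relative to all genes the members' median was -0.83 on the control diet and -0.55 on the SJW diet in that setting, against -0.84 and -0.68 in the main analysis. With the scanner's own log ratio 4 members passed on the SJW diet and 7 on the control diet, with medians relative to all genes of -0.63 and -0.89. With only the red channel used, Acadl lost its call on both diets. Hadhb lost it on the control diet (-0.44, adjusted p = 0.0883), and the other called members kept theirs. The split of calls over all genes moved too: 2394 rose and 4022 fell on the SJW diet, but 3394 rose and 3038 fell with the scanner's ratio, 2699 and 2515 with the deposited table, 2703 and 1282 with median centring, and 3948 and 4044 if only the red channel was used. On the control diet 3313 rose and 5020 fell, but 4848 rose and 3246 fell with the scanner's ratio, 3854 and 2646 with the deposited table and 3777 and 1854 with median centring. Without SJW AOM replicate 1, or without SJW tumour replicate 3, 5 members passed on the SJW diet. The share of all genes called without these arrays is not given here.

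Markers of other cells moved in the same comparisons. Of 8 general epithelial genes, 7 fell in SJW tumours (median -1.08) and 8 in control tumours (median -1.05), and their mean level ranged over 2.52 to 2.94 in SJW tumours, against 3.68 to 3.80 in SJW AOM, and over 2.40 to 3.31 in control tumours, against 3.68 to 4.11 in control AOM. Of 8 measured colonocyte genes, 6 fell on each diet, and their mean level ranged over -0.18 to 1.28 in SJW tumours, against 3.13 to 3.87 in SJW AOM, and over 0.47 to 0.95 in control tumours, against 3.44 to 4.46 in control AOM. All 6 goblet cell genes fell on both diets. Of 8 smooth muscle genes, 6 fell on the SJW diet (median -2.34) and 7 on the control diet (median -2.94). Of 6 fibroblast genes, 2 rose and 0 fell on the SJW diet (median 0.97), and 4 rose and 1 fell on the control diet (median 0.98). Of 8 leukocyte genes, 1 rose and 1 fell on the SJW diet (median 0.50), and 3 rose and 1 fell on the control diet (median 0.61). Skeletal and heart muscle genes, from tissue rich in these enzymes, were below the pool in every group, with a mean level of -1.89 in SJW tumours and -0.85 in SJW AOM, and of -1.98 in control tumours and -1.02 in control AOM. Of the 6, 4 fell on the SJW diet and 3 on the control diet. The part of these shifts in the members' falls was not tested.

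Against saline tissue, all 8 members fell in tumours of both diets. The background share of genes that fell was 22.5% on the SJW diet and 19.6% on the control diet. The members' median was -1.31 on the SJW diet, against -0.07 over all genes, and -1.06 on the control diet, against -0.04 over all genes. On the SJW diet Slc25a20 stood at 0.60, 0.66 and 0.53 in tumours, against 2.61, 1.74 and 2.38 in saline tissue. It fell by 1.65 ± 0.18 (adjusted p = 5.37e-06), or 3.13-fold. Cpt1a stood at -0.17, 0.02 and -0.19 in SJW tumours, against 1.46, 1.09 and 1.52 in SJW saline, and fell by 1.47 ± 0.14 (adjusted p = 1.69e-06). No tumour array came near the saline arrays for either shuttle gene.

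On the control diet Acadm stood at -0.89, -0.83 and -0.38 in tumours, against 0.66, 0.55 and 0.55 in saline tissue, and fell by 1.28 ± 0.16 (adjusted p = 2.46e-05), or 2.43-fold. Cpt1a stood at -0.22, -0.18 and 0.08 in control tumours, against 0.98, 1.11 and 1.11 in control saline, and fell by 1.18 ± 0.14 (adjusted p = 1.54e-05). Cpt2 had the smallest change of the members against saline, -0.60 ± 0.19 (adjusted p = 0.0222) on the control diet and -0.70 ± 0.19 (adjusted p = 0.0078) on the SJW diet. With median centring 0 members passed on the control diet, where Cpt2 then stood at 0.01, and the members' median relative to all genes was -0.56. Over all genes of the control diet 3449 rose and 5118 fell, but 6598 and 2992 with median centring. On the SJW diet 3560 rose and 5868 fell, but 4146 and 2645 with median centring, and 4727 and 5141 if only the red channel was used. The comparisons with saline tissue share their tumour arrays with those against AOM tissue.

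In non-tumour tissue of the SJW diet, AOM tissue had lower values than saline tissue for all 8 members, and 2 of them, Slc25a20 and Hadha, passed the test. Of all genes, 0.479% fell past the threshold. Slc25a20 stood at 1.24, 1.09 and 1.26 in SJW AOM, against 2.61, 1.74 and 2.38 in SJW saline, and fell by 1.05 ± 0.18 (adjusted p = 0.0198), or 2.07-fold. Hadha stood at -0.41, -0.32 and -0.46 in SJW AOM, against 0.37, 0.06 and 0.21 in SJW saline, and fell by 0.62 ± 0.13 (adjusted p = 0.0383), or 1.53-fold. In both genes replicate 2 of SJW saline was the lowest of its group and still above every SJW AOM array. With only the sample channel used, Hadha differed by -0.27 (adjusted p = 0.586) and Slc25a20 by -1.17 (adjusted p = 0.0522). The mean log2 pool signal of Hadha was 12.33 in SJW AOM and 11.99 in SJW saline, so the pool channel moved too. That of Slc25a20 was 9.56 and 9.74.

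The other members did not pass, with changes of -0.58 for Hadhb (adjusted p = 0.0775), -0.53 for Cpt1a (0.0703), -0.46 for Acadvl (0.08), -0.42 for Acadm (0.174), -0.38 for Acadl (0.219) and -0.28 for Cpt2 (0.41). The median over members was -0.50, against -0.02 over all genes. Groups did not overlap for 6 of 8 members, all lower in AOM tissue, which held for 15.5% of all genes. Within slides 1, 2 and 3, the AOM array minus the saline array gave -1.37, -0.65 and -1.12 for Slc25a20 and -0.79, -0.39 and -0.67 for Hadha. The median over members was -0.46, -0.26 and -0.76 on these slides, and Cpt2 at 0.19 and Acadl at 0.09 were above 0 on slide 2.

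Both calls rested on few arrays. Without SJW saline replicate 2, 5 members passed (Slc25a20, Hadha, Hadhb, Cpt1a and Acadvl), while 0 passed without SJW saline replicate 3, without SJW AOM replicate 2 or without SJW AOM replicate 3. The share of all genes called in these fits is not given here. With slide as a term, Slc25a20 had an adjusted p of 0.0679 and Hadha of 0.0865. With the 6 arrays of bright pool signal left out, the members' median was -0.26. That left replicate 2 alone in SJW saline, beside all SJW AOM arrays. Over all genes 171 rose and 125 fell, but 113 rose and 26 fell with median centring, 1 rose and 0 fell with slide as a term, and 6 rose and 1 fell with pool brightness as a term. The mean level of 8 colonocyte genes was 3.45 in SJW AOM and 4.50 in SJW saline, and 2 of them fell. That of 6 skeletal and heart muscle genes was -0.85 in SJW AOM and -1.76 in SJW saline, and pancreatic acinar genes reached 3.68 in SJW AOM replicate 3. Of 6 fibroblast genes 2 rose (median 1.55), of 8 leukocyte genes 2 rose (median 0.98), and 8 smooth muscle genes had a median of 1.85 with 0 past the threshold. Their part in the members' values was not tested.

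On the control diet AOM tissue and saline tissue did not differ past the threshold in any of the 8 members by limma's test, and 0.583% of all genes passed in either direction. At an unadjusted p under 0.05 there was 1 member, against 13.6% of all genes. Acadm was this member. It stood at 0.29, -0.09 and 0.40 in control AOM, against 0.66, 0.55 and 0.55 in control saline, a difference of -0.39 ± 0.16 (adjusted p = 0.293). Acadm was also the only member whose groups did not overlap in this comparison, which held in the lower direction for 8.33% of all genes. Of the other members, Cpt2 differed by 0.21 and the remaining 6 by -0.12 to 0.10, with a median over all 8 of -0.02. With median centring all 8 values were above 0, with a median of 0.41, against -0.02 in the main analysis. The split over all genes was 119 higher and 33 lower, but 234 and 155 with the scanner's ratio, 213 and 122 with the deposited table, 110 and 54 if only the red channel was used, 275 and 5 with median centring, and 7 and 0 in a fit of these 2 groups alone. Marker lists moved on this diet too. The median was 2.28 for 8 smooth muscle genes and 1.15 for 6 fibroblast genes, with 0 of either past the threshold. Of 8 colonocyte genes 1 fell (median -0.63), and 8 leukocyte genes had a median of 0.29 with 0 past the threshold. Their part in the members' values was not tested.

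**Figure D3:**
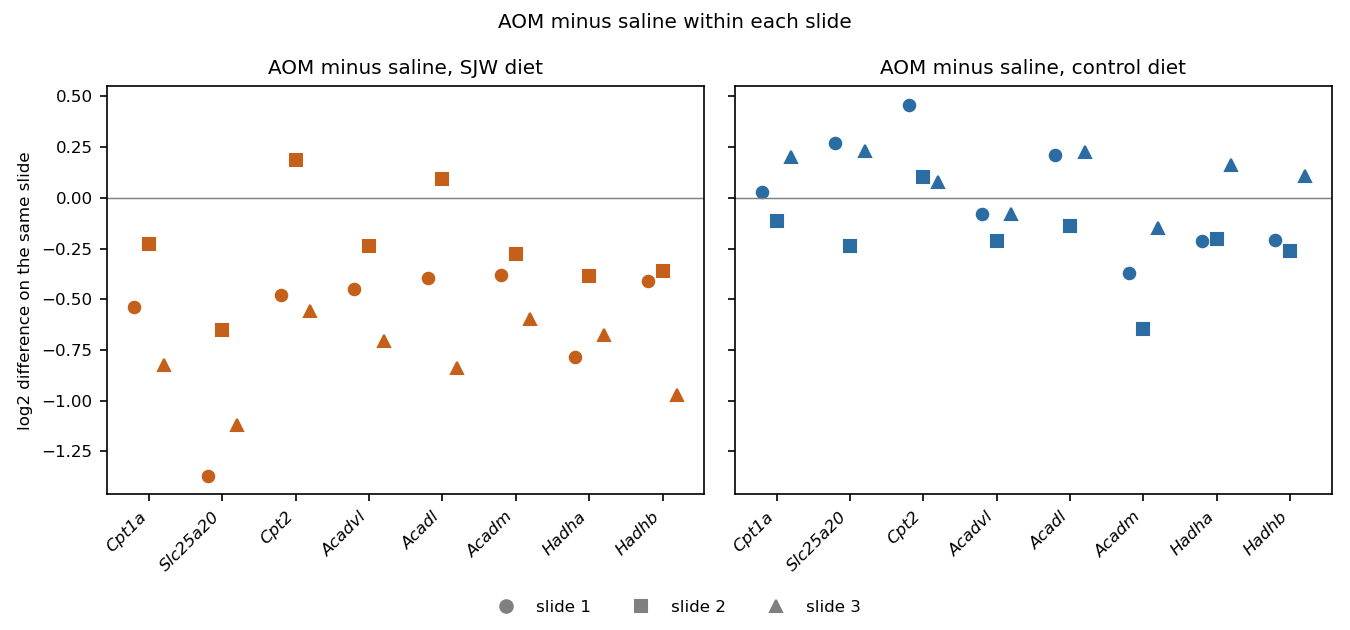
Difference in log2 ratio between the AOM and the saline array of the same slide, for each member and each of 3 slides, on the SJW diet and on the control diet. On the SJW diet all but 2 differences lie below 0, and on the control diet the median over members is -0.03, -0.21 and 0.14 on slides 1 to 3.

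The test of the difference between these AOM changes, SJW diet minus control diet, called 0 of 8 members with limma and 0% of all genes. At an unadjusted p under 0.05 there were 3 members, against 9.34% of all genes. Slc25a20 differed by -1.14 ± 0.25 (adjusted p = 0.476), Cpt1a by -0.57 ± 0.20 (0.506) and Hadha by -0.53 ± 0.19 (0.506), so the effect of AOM was not shown to differ between diets.

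SJW diet and control diet were also compared directly, and limma called 0 of 8 members and 0% of all genes after saline, after AOM and in tumours. After saline all 8 members had higher means on the SJW diet, from 0.05 for Acadm to 0.47 for Slc25a20, with a median of 0.30. An unadjusted p under 0.05 was reached by 3 members, Slc25a20, Hadha and Acadl, against 10.7% of all genes. Slc25a20 stood at 2.61, 1.74 and 2.38 in SJW saline, against 1.67, 2.01 and 1.65 in control saline (adjusted p = 0.356). Hadha, at 0.37, 0.06 and 0.21 in SJW saline against -0.09, -0.08 and -0.11 in control saline, was the 1 member whose groups did not overlap, which held in the higher direction for 8.25% of all genes. On slides 1, 2 and 3 the members' median difference was 0.45, -0.02 and 0.40. Replicate 2 of SJW saline, on slide 2, thus stood with control saline. Replicates 1 and 3 of SJW saline had a bright pool signal and replicate 2 did not, while in control saline replicates 2 and 3 had it. With the bright arrays left out, the members' median difference was 0.01. That fit held only replicate 2 of SJW saline and replicate 1 of control saline. Pancreatic acinar genes, not among those of intestine, had a mean level of 0.68, 1.57 and -0.31 in SJW saline, against -0.57, -0.25 and -0.76 in control saline, and their part was not tested.

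After AOM, 7 of 8 members had lower means on the SJW diet, with a median of -0.17. Slc25a20 stood at 1.24, 1.09 and 1.26 in SJW AOM, against 1.94, 1.77 and 1.88 in control AOM, a difference of -0.67 ± 0.18 (adjusted p = 0.9996). It was the 1 member with an unadjusted p under 0.05, against 3.18% of all genes. The difference was alike on the 3 slides, at -0.70, -0.69 and -0.61. Groups did not overlap for 4 members, Slc25a20, Hadha, Cpt1a and Cpt2, all lower on the SJW diet, which held for 5.67% of all genes. In tumours the diets were close, from -0.11 for Hadhb to 0.16 for Cpt2, with standard errors of 0.13 to 0.19. There 0 members had an unadjusted p under 0.05, against 6% of all genes, and groups overlapped for all 8 members, while they stood apart for 5.4% of all genes in the higher and 5.07% in the lower direction.

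The other genes of the pathway were counted by lists. Of 73 further genes in 10 lists, 71 were measured. In SJW tumours 4 rose and 38 fell against SJW AOM, with a median of -0.69, and in control tumours 3 rose and 41 fell against control AOM, with a median of -0.73. Of all genes, 9.18% rose on the SJW diet and 12.7% on the control diet. In AOM tissue against saline, 0 rose and 4 fell on the SJW diet, and 1 rose and 0 fell on the control diet. The lists were written with earlier results of these data known, so their direction is no independent evidence.

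**Figure D4:**
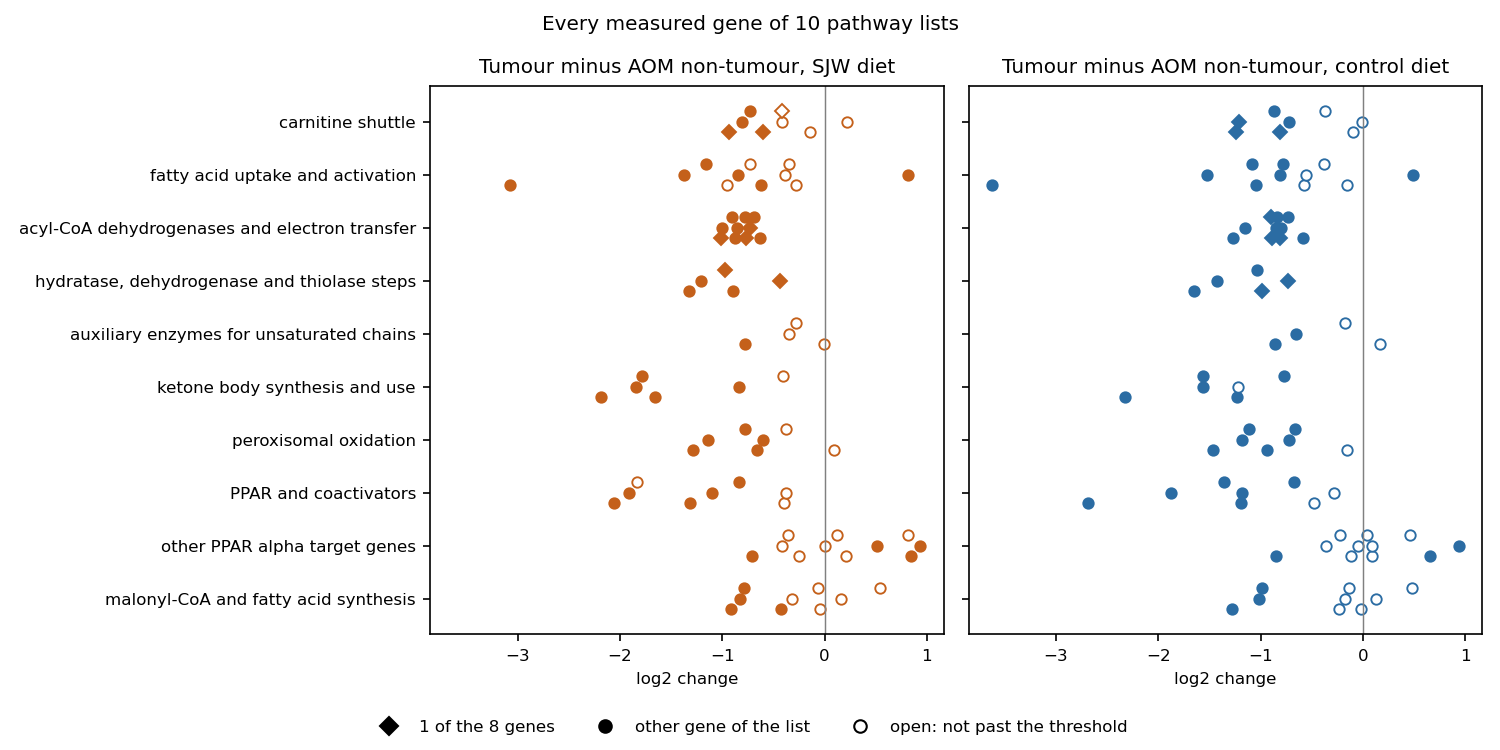
Log2 change in tumour minus AOM tissue for every measured gene of the 10 pathway lists, 1 list per row, on the SJW diet and on the control diet, with diamonds for the 8 members, circles for other genes and filled marks for calls. All other acyl-CoA dehydrogenase and electron transfer genes, 7 on each diet, are filled and below 0, while the other PPAR alpha targets lie on both sides of 0.

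Beyond the members, all 7 other acyl-CoA dehydrogenase and electron transfer genes fell in tumours of both diets, with a median of -0.86 on the SJW diet and -0.84 on the control diet. Among them Acads, the short-chain dehydrogenase that acts on butyryl-CoA, fell by 0.90 ± 0.20 (adjusted p = 0.00393) on the SJW diet and by 1.16 ± 0.20 (adjusted p = 0.000497) on the control diet. Etfdh and Etfb, which pass electrons from these dehydrogenases to the respiratory chain, fell by 1.00 and 0.63 on the SJW diet and by 0.84 and 0.80 on the control diet. All 3 other genes of the later steps fell on both diets. Hadh, the short-chain hydroxyacyl-CoA dehydrogenase, fell by 1.33 ± 0.20 (adjusted p = 0.000196) on the SJW diet and by 1.65 ± 0.20 (adjusted p = 2.34e-05) on the control diet. Acaa2, a mitochondrial thiolase, fell by 1.20 and 1.42, and Echs1, the short-chain enoyl-CoA hydratase, by 0.90 and 1.03 on the same diets.

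Of 5 other carnitine genes, 2 fell on each diet. They were Slc22a5, the carnitine importer of the cell surface, and Crat, a short-chain carnitine acyltransferase, with changes of -0.73 and -0.81 on the SJW diet and -0.72 and -0.87 on the control diet. Cpt1b, the muscle form of CPT1, differed by -0.42 ± 0.22 (adjusted p = 0.179) on the SJW diet and by -0.38 ± 0.22 (adjusted p = 0.208) on the control diet. Of 11 genes of fatty acid uptake and activation, 1 rose and 5 fell on the SJW diet, and 1 rose and 6 fell on the control diet. Fabp2, the intestinal fatty acid binding protein, fell by 3.08 ± 0.47 (adjusted p = 0.00024) on the SJW diet and by 3.62 ± 0.47 on the control diet. Acsl4, an acyl-CoA synthetase with a preference for arachidonate, rose by 0.81 ± 0.16 on the SJW diet and by 0.49 ± 0.16 on the control diet, where its groups overlapped.

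Of 7 measured peroxisomal genes, 5 fell on the SJW diet and 6 on the control diet. Pex11a, which acts in peroxisome division, changed by -1.28 on the SJW diet and by -1.47 on the control diet, and Ehhadh, the peroxisomal bifunctional enzyme, by -1.14 and -0.94. Of 4 auxiliary enzymes for unsaturated chains, 1 fell on the SJW diet and 2 on the control diet. Ech1 fell on both diets, by 0.78 on the SJW diet and 0.86 on the control diet. Decr1, a dienoyl-CoA reductase, fell by 0.66 on the control diet and differed by -0.28 on the SJW diet.

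Ketone body genes fell in tumours of both diets, 5 of 6 on each, with a median of -1.72 on the SJW diet and -1.39 on the control diet. Slc16a1, the transporter MCT1 for butyrate, lactate and ketone bodies, stood at -0.11, -0.38 and -0.68 in SJW tumours, against 2.09, 1.70 and 1.60 in SJW AOM. In control tumours it stood at -0.18, -0.18 and -0.38, against 2.33, 1.88 and 2.02 in control AOM. It thus lay well above the pool in all AOM arrays and below it in all tumours. Slc16a1 fell by 2.19 ± 0.17 (adjusted p = 1.52e-06) on the SJW diet and by 2.32 ± 0.17 (adjusted p = 3.62e-07) on the control diet, or 4.55-fold on the SJW diet.

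Acat1, the mitochondrial acetoacetyl-CoA thiolase, fell by 1.78 ± 0.16 (adjusted p = 2.45e-06) on the SJW diet and by 1.56 ± 0.16 on the control diet. Oxct1, the transferase that activates acetoacetate for use, stood at -1.37, -1.02 and -1.50 in SJW tumours, against 0.33, 0.49 and 0.25 in SJW AOM. It fell by 1.65 ± 0.17 on the SJW diet and by 1.56 ± 0.17 on the control diet. Bdh1, which interconverts acetoacetate and hydroxybutyrate, fell by 1.84 ± 0.20 on the SJW diet and by 1.23 ± 0.20 on the control diet.

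**Figure D5:**
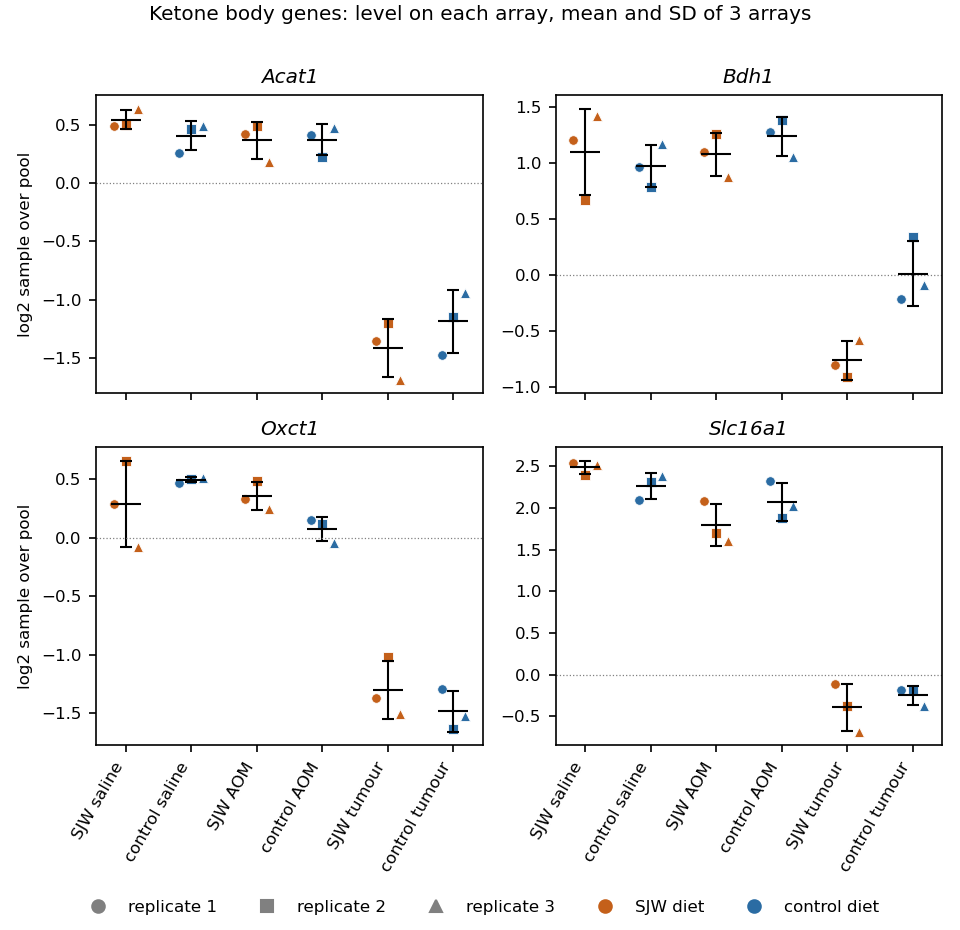
Log2 ratio of sample to pool for 4 genes of ketone body use and transport (Acat1, Bdh1, Oxct1 and Slc16a1), with 1 point per array and the mean and SD of each group of 3 in black. For Slc16a1 the 6 tumour arrays lie between -0.68 and -0.11, and the AOM arrays lie at 1.60 or above.

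Among regulators, 5 of 8 PPAR, coactivator and partner genes fell in SJW tumours and 6 of 8 in control tumours, with medians of -1.21 and -1.18. Ppargc1b, a coactivator of mitochondrial genes, fell by 2.06 ± 0.17 (adjusted p = 1.52e-06) on the SJW diet and by 1.87 ± 0.17 on the control diet. Its relative Ppargc1a changed by -1.10 and -1.18 on these diets, and Esrra, the nuclear receptor ERR alpha that works with both, by -1.31 and -1.36. Both fell past the threshold on each diet. Ppara, the fatty acid sensor best known for inducing these genes in liver, differed by -0.38 ± 0.24 (adjusted p = 0.256) on the SJW diet and by -0.48 ± 0.24 (adjusted p = 0.137) on the control diet. Nr1h4, the bile acid receptor FXR, fell by 1.91 on the SJW diet and by 2.69 on the control diet.

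Other known PPAR alpha targets did not share the members' direction as a list, with 3 of 11 rising and 1 falling on the SJW diet and 2 rising and 1 falling on the control diet. Their median was 0.13 on the SJW diet and 0.04 on the control diet. Angptl4, a secreted inhibitor of lipoprotein lipase, rose by 0.94 ± 0.16 (adjusted p = 0.000784) on the SJW diet and by 0.66 ± 0.16 (adjusted p = 0.00674) on the control diet. Pdk4, a kinase that shuts pyruvate out of oxidation, rose by 0.84 ± 0.21 (adjusted p = 0.00975) on the SJW diet and differed by -0.22 on the control diet. Fgf21, a hormone of the fasting liver, rose by 0.52 (adjusted p = 0.0426) on the SJW diet, a call that was lost without the filter on dim probes. Plin2, a lipid droplet coat protein, fell by 0.71 on the SJW diet and by 0.85 on the control diet. Of 9 genes of malonyl-CoA and fatty acid synthesis, 0 rose, 4 fell on the SJW diet and 3 on the control diet. Acacb, which makes malonyl-CoA at mitochondria, and Mlycd, which breaks it down, were both among them, with changes of -0.92 and -0.83 on the SJW diet and -1.28 and -0.99 on the control diet.

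In AOM tissue against saline tissue on the SJW diet, the 4 other pathway genes that fell included Ppargc1b by 0.75 ± 0.17 (adjusted p = 0.0425), Decr1 by 0.69 ± 0.16 (adjusted p = 0.0448) and Acad11, an acyl-CoA dehydrogenase, by 0.67 ± 0.14 (adjusted p = 0.0377). With slide as a term, 0 genes of the whole array fell past the threshold. The median over the 71 genes was -0.28. On the control diet Acsl4 was the gene that rose, by 0.85 (adjusted p = 0.0264), and the median was -0.11.

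The 6 genes with group means nearest to the members' mean profile, of 16249 with a symbol, were Rps6ka6, Ap1g2, Sptlc2, Fastkd1, Cmtm4 and Vwa8, at a root mean square difference of 0.0429 to 0.0593 over 6 groups. The members themselves lay at 0.0468 for Acadvl to 0.201 for Cpt2. Likeness of group means hides the spread between arrays: Rps6ka6 stood at 0.93, 0.09 and 3.01 in control saline.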

How the data were processed

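RNA of 18 intestine samples in 6 groups of 3, taken from the labels, was read on 18 arrays of 45018 spots (1639 controls), with sample RNA in red and the pool in green and no dye swap. Per the file headers, spots were read with Agilent Feature Extraction 10.10.1.1 (protocol GE2_1010_Sep10), with array annotation on build mm9. The deposited intensity values are median spot and local background signals, and the median took the place of the mean named in the planned design. The deposited log10 ratio is the software's red over green, per the file headers. The authors' deposited log2 values number 35491 per array. This table correlates with the scanner ratio at 0.9955 or more on every array and holds 3 members (Acadl, Cpt1a and Hadha).

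Normexp with an offset of 50 corrected the background, ratios were normalized by loess within arrays, control and outlier spots were left out, and spots of a probe were averaged. Loess assumes that most genes are level, which sets the zero of each comparison. A probe was kept (34081 of 41174) if some group had red signal well above background on its 3 arrays, and the brightest kept probe per gene was used. Names came from RefSeq (GRCm38.p6, for 27050 probes), and so did the promoters. The 26073 genes were fitted by lmFit and eBayes of limma 3.58.1 (R 4.3.3, with the data.table package, version 1.17.8) on all 18 arrays, with 12 residual degrees of freedom and Benjamini-Hochberg adjustment over all genes at 0.05. Red median intensities of 133 to 786.5 and 3 arrays per group limit the precision.

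All 8 members were named in every comparison, with 12 fixed pathway genes and up to 3 genes per list with the smallest p; some genes of the lists are counted but not reported here. Members and lists were chosen with earlier results of these data known. Same-numbered SJW and control arrays after saline share slides, and their deviations correlated at 0.17, 0.41 and 0.36. Same-numbered AOM and saline arrays of the control diet also share slides, but correlated at 0.06, -0.35 and -0.18. Outside the diets after saline, not all pairs of a comparison exceeded 0.1. These values do not show that the numbers pair samples. The fit was tested on simulated data. Alternatives were other background, scaling, filter, probe, block and sample choices, and 2 on pool brightness were added after seeing the data.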

Additional observations from a re-analysis of the deposited data

How the results depend on the processing

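Over 15 settings and each replicate left out, in 11 comparisons, the members' own values kept direction and side of the threshold 1777 times, lost the call 67 times and gained one 4 times, with 1 reversal: Cpt2 in tumour against saline on the control diet, 0.012 with median centring. Among other named genes, 10088 kept both, 216 lost the call, 40 gained one and 7 reversed; uncalled values, whose sign changed 67 times in members and 458 times in others, count as kept. With the deposited table the reversals were Crot at 0.81 and Abcd3 at 0.25 (tumour against AOM, control diet) and Cpt1b at 0.36 on the control diet and 0.79 on the SJW diet (tumour against saline). With median centring they were Crot at 0.67 and Fgf21 at -1.06 (tumour against saline, control diet), and without the dim filter Fgf21 at -0.0506 (tumour against AOM, SJW diet). For Crot, Abcd3 and Cpt1b the deposited table lacks the probe used here, so its values come from other, dimmer probes of these genes. Of Fgf21, the dim filter left out a probe with a mean log2 intensity of 6.72, against 6.50 for the one used. Why probes of a gene differed, and why median centring reversed values, was not tested. Members called in AOM against saline on the SJW diet, 2 in the main analysis, were 1 with the scanner ratio and with median centring. They were 0 with the deposited table (3 members tested), the red channel alone, slide as a block, the compared groups alone or pool brightness as a block. In tumour against AOM on the control diet, 2 of the 3 members held were called with the deposited table and 2 of 8 with median centring. On the SJW diet 1 of the 3 held was called with the deposited table, 4 of 8 with the scanner ratio and 0 with median centring. In tumour against saline all 3 members held by the deposited table were called on each diet, and 0 of 8 with median centring on the control diet.

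Median member changes moved with median centring to 0.41 (AOM against saline, control diet), -0.68 (the same, SJW diet), -0.45 (tumour against AOM, SJW diet), -0.42 (tumour against saline, control diet), 0.81 (SJW against control diet after saline) and -1.11 (AOM change between diets). With the deposited table, over the 3 members it holds, they were -0.59 and -0.53 (tumour against AOM, control and SJW diet) and -0.74 and -1.12 (tumour against saline, same order), and with the scanner ratio -0.57 (tumour against AOM, SJW diet). With bright-pool arrays left out they were -0.26 (AOM against saline, SJW diet), -1.10 (tumour against AOM, control diet), -1.04 (tumour against saline, SJW diet), 0.0106 (SJW against control diet after saline) and -0.34 (AOM change between diets). This left replicate 1 alone in control saline and replicate 2 alone in SJW saline. Leaving out 1 replicate gave 0 to 5 calls and medians of -0.63 to -0.41 (AOM against saline, SJW diet), 5 to 7 calls and -0.84 to -0.67 (tumour against AOM, SJW diet), 8 calls and -1.01 to -0.82 (the same, control diet), 8 calls and -1.40 to -1.24 (tumour against saline, SJW diet), 7 to 8 calls and -1.11 to -1.02 (the same, control diet), medians of -0.12 to 0.05 (AOM against saline, control diet), 0.20 to 0.45, -0.26 to -0.08 and -0.07 to 0.08 (diets after saline, after AOM and in tumours), -0.61 to -0.36 (AOM change between diets) and 0.14 to 0.29 (tumour change between diets), with 0 calls in the last 6. With the replicate block, in the order above from AOM against saline on the SJW diet, 2, 7, 8, 8 and 8 members were called, the same counts as without it. Among other named genes, Acads in AOM against saline on the SJW diet and Elovl6 in tumour against saline on the control diet gained the call under that block. Acad11 in AOM against saline and Fgf21 in tumour against AOM, both on the SJW diet, lost it. The block changed no call after saline between diets, where the deviations of same-numbered arrays all correlated positively.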
